A study of Mus musculus with 6 samples.

Results

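The Step1 and Con libraries of a double-strand break map in mouse forebrain neurons were compared, with 2 libraries in each group. These 4 libraries are those titled Con (replicates 1 and 2) and Step1 (replicates 1 and 2), out of 6 in the series, the other 2 being titled Step2. All were made from sorted neurons of the forebrain of CK-p25 mice, and in all of them, Con included, doxycycline had been taken out of the diet for 2 weeks to induce the transgene. The labels give every library the same genotype and treatment, do not say what Con and Step1 stand for, give no age, and do not say whether the 2 libraries of a group came from different mice. The p-values below therefore measure the spread between libraries, which may be technical. Each aligned read was counted at its 5′ end, the base next to the break, on mm10 chromosomes 1 to 19 and X, both with all reads and with 1 read per position and strand.

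CK-p25 mice express p25, the truncated and overactive partner of the kinase Cdk5, in forebrain neurons that use the Camk2a promoter, and they are used as a model of neurodegeneration in which neurons accumulate DNA breaks. BLISS tags such breaks by ligating an adaptor to the exposed DNA ends in fixed cells, copying the tagged ends into RNA and sequencing outward from each end, so a read starts where the DNA was open. In neurons, breaks are known to occur at the promoters of active genes, where topoisomerase II cuts, and along very long genes for synapse and adhesion proteins. The method counts ends in a pool of nuclei: more broken cells and more breaks per cell cannot be told apart, and neither can a changed number of breaks over the whole genome, since every value below is relative to its library's total. RNA is not read, so the neuronal identity of the sorted cells could not be checked by expression.

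The Con libraries held 2300995 and 2273508 reads and the Step1 libraries 2403238 and 2043098. Read ends piled up in 26 windows of 10 kb, each above 20 times the median window, which held 4.09% and 3.71% of Con reads and 5.06% and 4.92% of Step1 reads. These windows were left out of the library totals used for scaling, and counts scaled to CPM below are relative to the reads outside them. The most common read length was 49 bases in both Con libraries and 48 bases in both Step1 libraries, so a group and the preparation of its libraries cannot be told apart. Mitochondrial reads were 0.135% and 0.256% of the Con libraries and 0.0340% and 0.0425% of the Step1 libraries.

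The largest differences between the groups lay at single break ends, and the sequences of some of the ends that differed are shown here first. Most of the largest differences, given further below, lay at other ends. Ends that share a run of letters were a minority of those that differed, as counted below. Each is 30 bases of the mm10 reference on the strand of the read, 5′ to 3′, and the capitals mark the 6 bases just before the break end, so the reads begin with the next base. The first set was high in Con and was preceded by the same 6 letters.
Phactr1 intron, chr13:42727963-42727992, minus strand: ctctagaaaACGCCTctgttcccctcactc
Sncb exon, chr13:54765565-54765594, plus strand: acatagaggACGCCTtccttggtcttctct
Cntn4 intron, chr6:105731740-105731769, plus strand: tgcgccaccACGCCTggtttctgcaagtcc
Malat1 exon, chr19:5800234-5800263, plus strand: tagcagtacACGCCTtctctaacccagtgt
Mlec exon, chr5:115147352-115147381, plus strand: ttctcttccACGCCTttgtctttaccgtcc
The second set was high in Step1. Its 6 bases begin with a T in place of the A, and their last base varies.
Gm26917 exon, in a ribosomal DNA copy, chr17:39844412-39844441, minus strand: cccgcgactTCGCCAgccgtgggaacgctg
Scarna2 exon, chr3:108554610-108554639, plus strand: tacacacacTCGCCTtgcacctcccagtcg
Arglu1 exon, chr8:8690337-8690366, plus strand: cgccgcctgTCGCCCgctgcccgccgcagg
Lrrc41 exon, chr4:116092927-116092956, plus strand: ggctggatgTCGCCTccgtgccctgcatct
Malat1 exon, chr19:5802098-5802127, plus strand: gcgccaccaTCGCCCggctagcctaacact
The last set had neither run of letters.
Gm44765 exon, chr7:64284091-64284120, plus strand: cgccaacacACACCTtataaggagcctcct
Cmss1 and Filip1l intron, chr16:57391596-57391625, plus strand: cggggccctTCACCTtcattgcgccacggc

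Among the Con-high ends, the position in Phactr1, a regulator of actin and protein phosphatase 1, had 46 and 68 reads in the Con libraries. The Step1 libraries had 5 and 5, a log2 difference (Step1 minus Con) of -3.30 ± 0.69 (SE). Sncb encodes beta-synuclein, a presynaptic protein, and its end had 24 and 55 reads in Con and 1 and 3 in Step1 (-3.90 ± 0.61). At the Phactr1 and Sncb ends only Con reached the minimum of 10 reads among these libraries, so no p-value is given. The end in Cntn4, a neuronal adhesion molecule of the contactin family, had 14 and 45 reads in Con and 0 and 0 in Step1, which is at least 9.43-fold lower when each Step1 library is set at 3 reads, as for every bound below. Malat1, an abundant nuclear RNA, had an end with 53 and 205 reads in Con and 7 and 18 in Step1 (-3.14 ± 0.91, limma adjusted p = 0.0442). At the Mlec end the Con libraries had 35 and 71 reads and the Step1 libraries 13 and 9 (-2.08 ± 0.52, adjusted p = 0.0232); malectin binds glycans in the endoplasmic reticulum. At each of these 5 positions every Con library was above both Step1 libraries, but they were chosen after their values were seen. Of all 1455 positions tested, 22.9% were apart in this direction.

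The Step1-high ends shown ranged widely in the size of their difference. In the ribosomal DNA copy annotated as Gm26917, 1 position held 2 and 7 reads in Con against 2032 and 1645 in Step1 (8.78 ± 0.52). Only Step1 reached the minimum of 10 reads there among these libraries, so no p-value is given. Scarna2 is a small Cajal body RNA that guides modification of spliceosomal RNA. Its end had 55 and 94 reads in Con and 247 and 199 in Step1 (1.68 ± 0.27, limma adjusted p = 0.0019). The end in Arglu1, a splicing coactivator, had 0 and 0 reads in Con and 17 and 11 in Step1, at least 4.80-fold higher. The Lrrc41 end had 0 and 0 against 11 and 15 reads, at least 4.59-fold higher. Malat1 also held a Step1-high end, with 0 and 0 reads in Con and 13 and 13 in Step1, at least 4.53-fold higher.

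The Gm44765 position had 37 and 66 reads in Con and none in Step1, at least 16.4-fold lower. The position in the shared intron of Cmss1 and Filip1l had 109 and 243 reads in Con and 15 and 24 in Step1 (-3.03 ± 0.55, adjusted p = 0.00415). Ends 1 base apart could go opposite ways: between genes on chromosome 16, plus-strand position 19396911 had 1 and 1 reads in Con and 62 and 70 in Step1, a ratio of 68.6 (95% counting interval 18.6 to 572), and position 19396910 had 18 and 10 reads in Con and 0 and 0 in Step1, at least 4.46-fold lower.

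**Figure D1:**
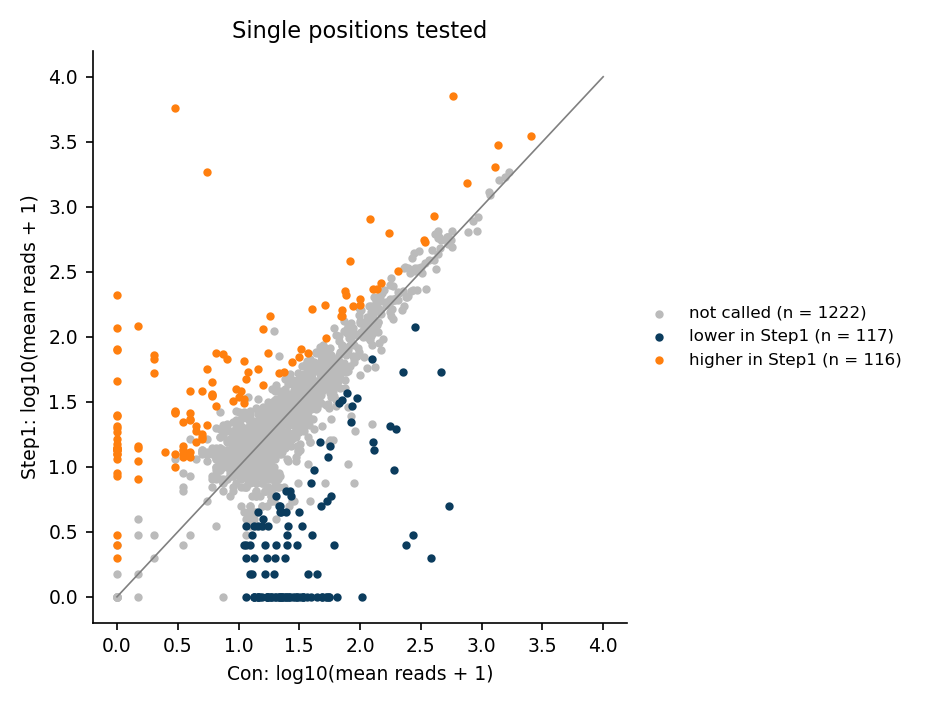
Mean reads of the 2 Con libraries (horizontal) and of the 2 Step1 libraries (vertical) at each single position tested, as log10 of the mean plus 1, with 1 point per position and the line of equality in grey. The 116 called positions higher in Step1 are orange, the 117 lower ones are dark blue, and those along the axes had no read in the other group.

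In all, 1455 positions had at least 10 reads in at least 2 libraries, and 233 of them differed at an adjusted p under 0.05 (limma voom, Benjamini-Hochberg over the 1455), which is 16.0% of those tested. In Step1, 116 were higher (7.97%) and 117 lower (8.04%). Most of the higher ones lay in piles: 47 in the chromosome 2 window from 98660001, 17 in the ribosomal DNA copy on chromosome 17 and 30 in other piled-up windows, with 22 elsewhere. Of the lower ones, 22, 7 and 28 lay in the same 3 places and 60 elsewhere. The lower group had no read at all at 49 of the 117 and at 26 of the 116. Such positions passed the read minimum only through the group where they were high, so they had to differ, and no test rests on their number. Without replicate 2 of Con 98 positions were called, without replicates 1 and 2 of Step1 131 and 123, and with the piled-up windows left out 65.

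Among the largest differences, the Step1-high positions also included another in the ribosomal copy (0 and 0 against 228 and 186 reads, at least 71.6-fold higher), 1 between genes on chromosome 6 (0 and 0 against 131 and 101, at least 40.0-fold) and 1 between genes on chromosome 3 (0 and 0 against 81 and 79, at least 27.9-fold). On the Con side, 4 of the 5 largest lay in the chromosome 2 pile, among them position 98666568 with 416 and 351 reads in Con and 1 and 1 in Step1, a ratio of 369 (102 to 3053). The other was in an intron of Chl1, a neural adhesion molecule, with 70 and 58 reads in Con and 0 and 0 in Step1, at least 20.4-fold lower. The chromosome 2 pile thus held positions far to either side of equality within 10 kb. The positions named beyond the 5 largest in each direction were chosen after their values were seen.

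The letters shared by the first 2 sets were then counted over all positions tested. The motif searched was CGCCN just before the end, on the strand of the read, with the base in front of it told apart. It was chosen from the called positions themselves, which include those shown and those that passed the read minimum only through 1 group, so these counts are a description and support nothing. With A in front, as in the first set, it preceded 22 of the 117 lower positions, with T as its last base at all 22, against 5 of the 116 higher ones and 8 of the 1222 that were not called. With T in front, as in the second set, it preceded 0 of the lower, 10 of the higher and 7 of the uncalled positions. Outside the piles, the form with A preceded 21 of 60 lower, 1 of 22 higher and 7 of 80 uncalled positions.

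The shares of reads that follow cover all reads outside the piles, the positions above included. The form with A preceded 0.274% and 0.521% of Con reads and 0.0877% and 0.108% of Step1 reads, and it precedes 0.0144% of genome positions counted on both strands. The form with T preceded 0.0541% and 0.0860% of Con reads and 0.185% and 0.251% of Step1 reads, against 0.0120% of genome positions, so here Step1 was higher. With 1 read per position the groups were still apart for both forms, at 0.216% and 0.387% against 0.0811% and 0.0963% with A, and at 0.0527% and 0.0802% against 0.150% and 0.207% with T. With C in front (0.0710% and 0.132% in Con, 0.0607% and 0.0801% in Step1) and with G in front (0.0507% and 0.0899%, then 0.0503% and 0.0634%) the groups overlapped. No source used here gives the adaptor sequence of each library, and these letters were not compared with it.

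The 2 libraries of a group also shared exact positions more often than libraries of different groups. The Con pair had 30807 positions and strands in common, 1.73% and 1.93% of each library's positions, and the Step1 pair 22106 (1.09% and 1.31%). The 4 pairs across the groups shared 10401 to 12299 positions, or 0.555% to 0.739%. Leaving out the piles and every end after CGCCN, the same counts were 25149, 17281 and 6044 to 7771.

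Reads were also spread over the genome differently. The exact two-sided permutation test of 2 against 2 libraries cannot go below p = 0.33, the value it gave for each share below whose groups did not overlap. A larger share of Con reads lay in introns: introns held 42.7% and 42.9% of Con reads and 41.7% and 41.6% of Step1 reads, and 52.2% and 51.6% against 53.3% and 53.3% fell between genes. Exons held 5.13% and 5.59% in Con and 5.02% and 5.13% in Step1, where the groups met. Genes over 300 kb held 13.3% and 13.5% of Con reads and 12.7% and 12.7% of Step1 reads, a difference of -0.67 percentage points against 12.3% of the genome. Chromosome X held 6.01% and 6.09% in Con and 5.80% and 5.85% in Step1. With the piles included, unlike in the shares above, break ends per base of X relative to the autosomes were 0.887 and 0.902 in Con. In Step1 they were 0.845 and 0.853. The base just before the end was T at 44.8% and 48.4% of distinct Con positions and at 41.6% and 42.5% of Step1 positions, so the groups differed in this too, and its part in the other shares was not tested.

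**Figure D2:**
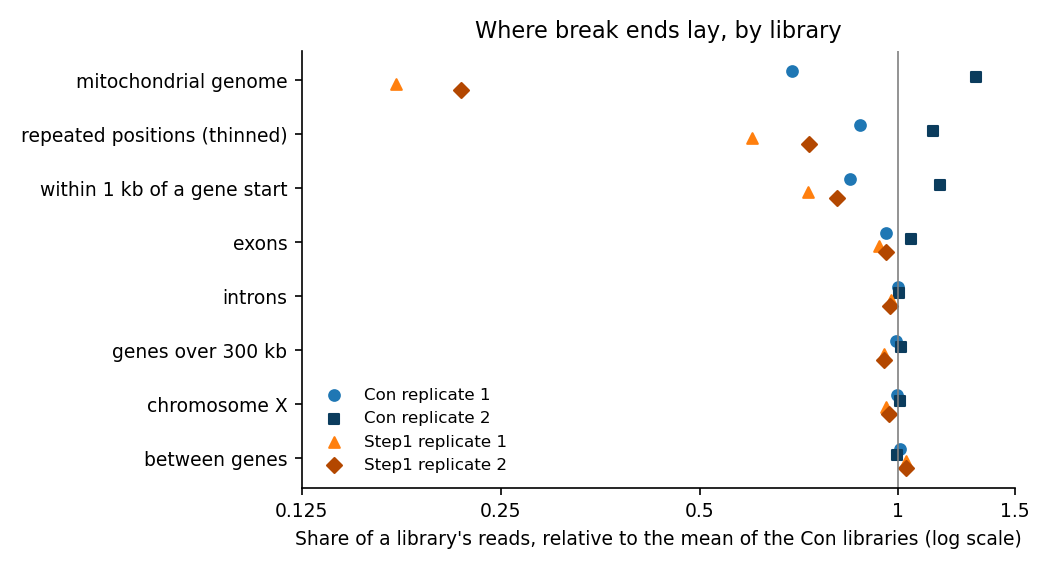
Share of each library's reads by place, divided by the mean of the 2 Con libraries, on a log axis, with 1 symbol per library; repeated positions were counted at equal depth. The Step1 libraries lie to the left of both Con libraries for mitochondrial reads, repeated positions, gene starts, genes over 300 kb and chromosome X, and to the right between genes.

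Relative to the library totals, 13 genes over 300 kb had fewer break ends in Step1. With 1 read per position, 15 of 12715 genes were called at an adjusted p under 0.05 (0.118%), 14 lower (0.110%) and 1 higher (0.00786%), and 1047 had an unadjusted p under 0.05 (8.23%). Of the 14 lower genes, 13 were over 300 kb, and the other was Gm21738, a gene model in a repeat. The differences were small: the 13 had between 0.803 and 0.934 times the Con level. These 13 and the higher gene kept their direction under each alternative run, but the calls depended on the setting. With median-of-ratios scaling 4 genes were called, 3 higher and 1 lower, and of the 15 only Rbfox1 and C2cd6 were among them. With a GC trend removed 4 of the 15 were called, 3 lower and 1 higher. The count of calls was 4 without replicate 2 of Con, 1 without replicate 1 of Step1, 9 without replicate 2 of Step1, 0 in sequencing run 1 and 2 in run 2. Without replicate 1 of Con, 46 were called.

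The deepest fall was in Frmd4a (chr2:4017717-4614043), a scaffold of cell polarity, which had 277 and 256 CPM of distinct ends in Con and 209 and 222 in Step1 (-0.32 ± 0.07, adjusted p = 0.00754). Rbfox1 (chr16:5885355-7411526), a neuronal splicing regulator, had 671 and 765 CPM in Con and 618 and 621 in Step1 (-0.20 ± 0.03, adjusted p = 1.55e-05). Lrp1b (chr2:40595246-42653624), an endocytic receptor of the LDL receptor family, had 869 and 853 in Con and 770 and 778 in Step1 (-0.16 ± 0.03, adjusted p = 5.21e-05). In all 3 genes both Con libraries were above both Step1 libraries, which the rule for naming genes asked for. Over all genes tested with 1 read per position, 23.8% were apart in this direction. Rbfox1 and Lrp1b were still called once a smooth trend on GC content had been removed, at -0.17 and -0.13.

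Nrxn3, a presynaptic neurexin, had 683 and 773 CPM of distinct ends in Con and 646 and 644 in Step1 (-0.16 ± 0.03, adjusted p = 0.00106). Adgrb3, a receptor of the BAI family at synapses, had 339 and 379 in Con and 299 and 294 in Step1 (-0.26 ± 0.06, adjusted p = 0.00598). Cacna2d3, an auxiliary subunit of voltage-gated calcium channels, had 354 and 361 against 305 and 293 (-0.25 ± 0.06, adjusted p = 0.0104). Kalrn, a guanine nucleotide exchange factor of dendritic spines, had a difference of -0.28 and Dab1, the adaptor of Reelin signalling, of -0.18 (adjusted p = 0.0372 for both). Dmd, the dystrophin gene on chromosome X, had 947 and 999 CPM in Con and 891 and 916 in Step1 (-0.11 ± 0.02, adjusted p = 0.0104). The others were Csmd1 (-0.16), Dlg2 (-0.14), Tenm2 (-0.18) and Lsamp (-0.10), which were also lower with all reads.

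C2cd6, a gene known from sperm, was the 1 gene higher in Step1 with 1 read per position. It had 33 and 18 reads in Con and 57 and 57 in Step1, or 18.6 and 11.3 against 28.3 and 34.0 CPM (1.05 ± 0.24, adjusted p = 0.019). With all reads its adjusted p was 0.208. Counting all reads called 17 of 13811 genes (0.123%), 3 higher (0.0217%) and 14 lower (0.101%), with 978 at an unadjusted p under 0.05 (7.08%), and 5 genes were called by both countings. Over the 12715 genes tested in both, 85.5% had the same sign. Where all reads were counted, 7 of the 14 lower genes were under 300 kb.

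**Figure D3:**
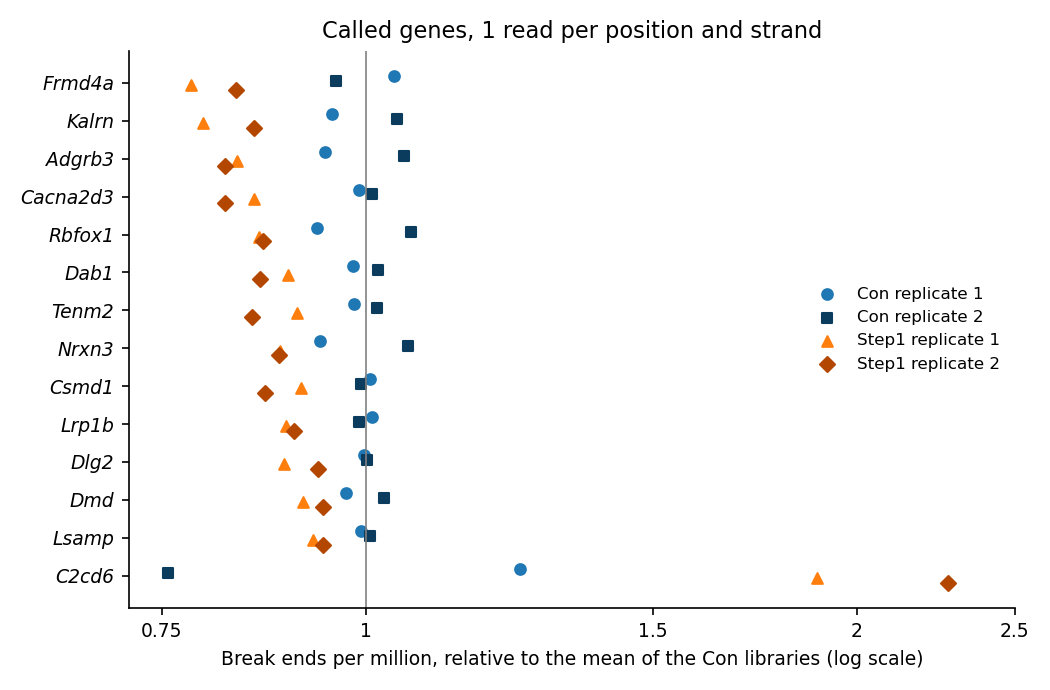
CPM of distinct break ends in the called genes, divided by the mean of the 2 Con libraries, on a log axis with 1 symbol per library. In the 13 long genes both Step1 libraries lie left of both Con libraries, by folds of 0.803 to 0.934 in the fit, and in C2cd6 they lie right of them.

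Lower estimates were also common among the other long genes. Of the 59 genes over 1000 kb, 53 had a lower estimate in Step1, 9 were called lower and 36 had both Step1 libraries below both Con libraries (61.0%), with a median log2 difference of -0.08. Of the 508 genes of 300 to 1000 kb, 381 had a lower estimate, 4 were called and the median was -0.07. Over all 12715 genes tested, 58.5% had a lower estimate, 23.8% had the libraries apart in that direction and the median was -0.06. Genes under 10 kb had a median of -0.22, but only 247 of 7693 reached the read minimum. For the genes over 1000 kb, removing the GC trend moved the median to -0.04 and the share with a lower estimate from 89.8% to 71.2%, and median-of-ratios scaling moved them to -0.02 and 61.0%. For all genes over 300 kb, median-of-ratios scaling moved the median from -0.07 to -0.01 and the share from 76.5% to 56.3%, where over all genes tested the median was then 0.00 and the share 50.3%.

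**Figure D4:**
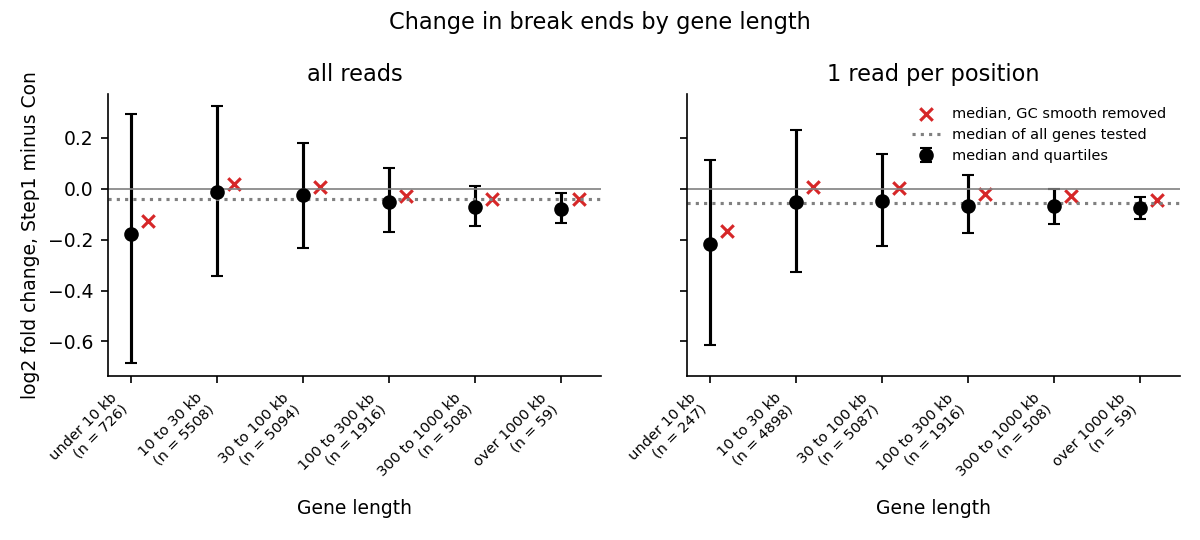
Median (points) and quartiles (bars) of the log2 fold change, Step1 minus Con, by class of gene length, with all reads on the left and 1 read per position on the right; crosses are medians after removing the GC trend and the dotted line is the median of all genes tested. With 1 read per position the median is -0.08 for genes over 1000 kb and -0.06 over all genes.

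Genes on chromosome X had a median of -0.08 with 1 read per position, and 293 of 459 had a lower estimate, against -0.06 for genes on chromosomes 1 to 19. Dmd, 1 of the 13 long genes that fell, lies on X, and the share of X itself differed by -0.04 on the log2 scale.

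Around gene starts, both Con libraries had a higher density of break ends than either Step1 library (exact permutation p = 0.33, the smallest possible). Densities were taken relative to the mean of outer flanks of the same starts, farther out than the stretches named below. Within 200 bases of the start of protein-coding genes, this density was 2.96 and 4.80 in Con and 2.04 and 2.46 in Step1. The peak, in the 100 bases before the start, reached 5.11 and 8.83 in Con and 3.25 and 4.05 in Step1. With 1 read per position the peak was 4.56 and 7.34 against 3.01 and 3.68. From 1 to 2 kb after the start the groups overlapped, at 1.09 and 1.14 in Con and 1.09 and 1.14 in Step1. The 2 Con libraries differed from each other by more than Con 1 differed from the Step1 libraries, and the difference in the share within 1 kb of a start was -0.65 percentage points with all 4 libraries, -1.08 without Con 1 and -0.21 without Con 2. The Con libraries also had the larger share of reads at repeated positions, here with the piles included. At equal depth, 32.2% and 41.5% of Con reads were on positions hit at least 2 times, against 22.1% and 27.0% in Step1. The part of repeated positions in the difference at starts was not tested beyond the counting of 1 read per position.

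**Figure D5:**
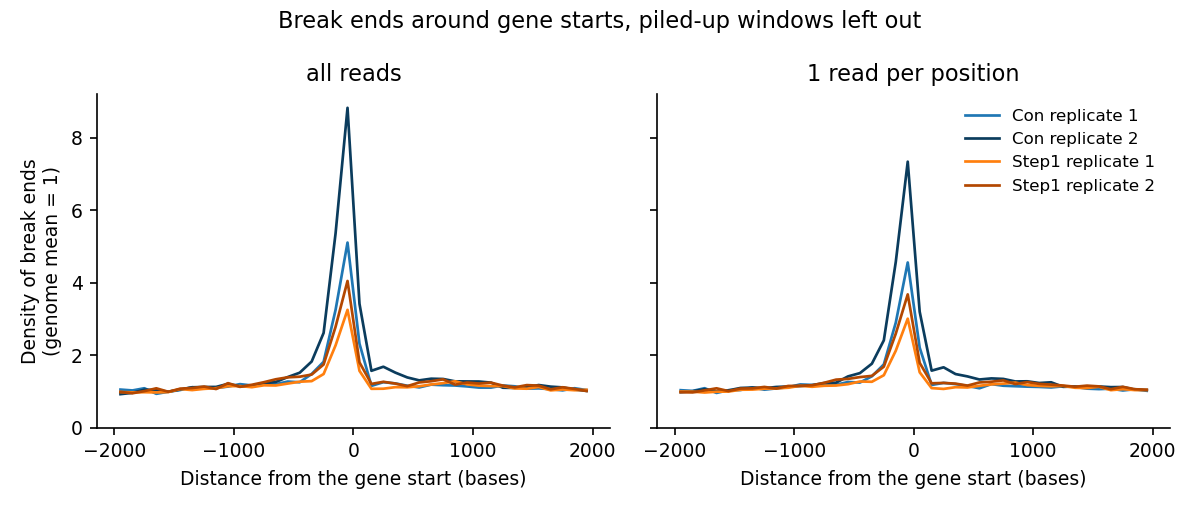
Density of break ends by distance from gene starts in bases, with 1 line per library. All reads are on the left and 1 read per position on the right. A density of 1 is the mean of flanks of the same starts beyond the range drawn, although the axis names the genome mean. With all reads the peak just before the start reaches 5.11 and 8.83 in the Con libraries and 3.25 and 4.05 in the Step1 libraries.

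Single gene starts rarely had enough reads to be tested. With 1 read per position, 478 start regions of 1 kb to each side were tested and 20 were called, all lower in Step1 (4.18%), with 169 at an unadjusted p under 0.05 (35.4%). Both Step1 libraries were below both Con libraries at 68.6% of the 478 and above them at 0.418%. Any 2 libraries could meet the read minimum, so starts high in Con could pass through Con alone, which favours lower estimates among the 478. Without a read minimum, 21216 starts had a median log2 difference of -0.18, and 60% had a lower estimate. The median over all 478 was -0.81 under the main scaling, and 0.02 with median-of-ratios scaling and 0.03 after removing the GC trend, so the calls are to be read against that shift: with the first of these 0 starts were called, and with the second 2 were, both higher in Step1. Leaving out 1 library gave 148 calls, all lower, without replicate 1 of Con, 0 without replicate 2 of Con, 3 and 4 without replicates 1 and 2 of Step1, and 44 and 34 without those of Step2. Of the 20 starts, 3 belonged to gene models in repeats (-0.20 to -0.19), and they turned higher under both alternatives. The other 17, in 14 separate regions, ranged from -2.28 to -1.25, and none of them turned higher.

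The start of Tomm40, the pore of the mitochondrial import machinery, had 39 and 43 distinct ends in Con and 21 and 16 in Step1 (-1.25 ± 0.37, adjusted p = 0.0253), and it is the only one of the 17 with a mean of at least 20 reads. Others were chosen after their values were seen. The start of Acat2, an acetyl-CoA acetyltransferase, had 22 and 20 ends in Con and 4 and 10 in Step1 (-1.96 ± 0.52, adjusted p = 0.0141). Stil, a centriole duplication factor, had 19 and 27 against 4 and 14 (-1.75 ± 0.46, limma adjusted p = 0.0141). M6pr, which encodes a sorting receptor for lysosomal enzymes, had 20 and 22 against 6 and 8 (-1.72 ± 0.49). Sptlc2, a subunit of serine palmitoyltransferase, had 18 and 23 against 6 and 7 (-1.75 ± 0.51). At M6pr and Sptlc2 only Con reached the minimum of 10 reads among these libraries, so no p-value is given for them. At each start named so far in this paragraph the groups did not overlap, but the call ended without a read minimum. With all reads the libraries were apart at 61.3% of 917 starts in the lower direction and at 2.51% in the higher. The limit set by the read minimum applies here too, and without it 52.1% of 21216 starts had a lower estimate. Of the 917, 219 had an unadjusted limma p under 0.05 (23.9%), and 1 was called (0.109%), which was higher. It was Gm10801, a gene model in the chromosome 2 pile, with 16446 and 14800 reads in Con and 26047 and 21294 in Step1. Its distinct ends were 550 and 508 in Con against 533 and 486 in Step1.

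In windows of 100 kb, 4 of 25381 were called with all reads (0.0158%), 2 in each direction (0.00788% each), with 1844 at an unadjusted p under 0.05 (7.27%). Of 25334 windows tested with 1 read per position, limma called 0, with 2097 at an unadjusted p under 0.05 (8.28%). Without replicate 1 of Con these 2 counts of calls became 176 and 39, without replicate 2 of Con 13 and 0, and without either Step2 library 2 and 0. Of the 2 higher windows, that from 90300001 on chromosome 2 had 18 and 15 reads in Con and 112 and 156 in Step1 (3.04 ± 0.36, adjusted p = 1.08e-09), 80.1% of them at 1 position. The window from 5800001 on chromosome 19, which holds Malat1, had 365 and 683 reads in Con and 186 and 234 in Step1 (-1.18 ± 0.24, adjusted p = 0.0223), and 0.04 with the piled-up windows left out. The window from 44800001 on chromosome 13, at Jarid2, had 234 and 486 against 136 and 154 (-1.15 ± 0.24, limma adjusted p = 0.0351). Of these reads 54.55% lay at 1 position, and with 1 read per position the window had 80 and 74 in Con against 70 and 73 in Step1 (-0.25).

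The gene lists, given with 1 read per position, were described by their counts beside those of all genes tested (14 called lower, 58.5% with a lower estimate, median -0.06). Of the long neural genes known for recurrent breaks, 43 were tested: 9 fell, 36 had a lower estimate, 29 had the libraries apart (67.4%, against 23.8% of all genes) and the median was -0.10. This list was drawn up with earlier results of these data known, and its genes are the long ones described above. The other 7 had a higher estimate, and in 1 of them both Step1 libraries were above both Con libraries: Prkg1, a cGMP-dependent protein kinase, chosen after its values were seen, had 856 and 756 distinct ends in Con and 1074 and 858 in Step1 (0.13 ± 0.04, adjusted p = 0.258). With median-of-ratios scaling 28 of the 43 had a lower estimate and the median was -0.04. Of 41 synaptic genes none was called, 35 had a lower estimate and the median was -0.13. Grin1, the obligatory NMDA receptor subunit, had 37 and 23 ends in Con and 21 and 21 in Step1 (-0.62 ± 0.29, adjusted p = 0.54), and Homer1, a postsynaptic scaffold, had 107 and 91 against 96 and 74 (-0.35 ± 0.15).

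None of the other lists had a called gene with 1 read per position. The 8 early response genes tested of 22 had 7 lower estimates and a median of -0.31, and Nr4a2, a nuclear receptor of this group, had 17 and 14 ends in Con and 14 and 7 in Step1. The 20 genes of break repair and p53 signalling had 9 lower estimates (median 0.02), and the 14 genes of cohesin and CTCF had 9 (median -0.10). Top2b, the topoisomerase II of neurons, had 54 and 48 ends in Con and 71 and 53 in Step1. The 12 oxidative phosphorylation genes had 7 lower estimates (-0.17), the 7 of NF-kB, interferon and antigen presentation had 5 (-0.13) and the 3 histone genes had 3 (-0.32). All 4 ribosomal protein genes tested, of 28, had a higher estimate, with a median of 0.28. With all reads this list turned, to 5 lower estimates of 9 and a median of -0.11, and so did the oxidative phosphorylation list, to 7 of 16 and 0.07. The medians of the other 11 lists had the same sign in both countings.

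Among genes used as markers of brain cell types, read here only as stretches of DNA, the 10 excitatory neuron genes had 8 lower estimates (median -0.09), the 7 inhibitory neuron genes 3 (0.02) and the 24 glial and vascular genes 8 (0.12). The 15 silent germline and sensory genes had 6 lower estimates and a median of 0.05. Of the genes of the CK-p25 system, Camk2a had 46 and 49 distinct ends in Con and 53 and 46 in Step1 and was not called, and Cdk5r1, which encodes the precursor of p25, had 3 and 5 reads against 2 and 1, below the minimum for a test.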

How the data were processed

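Per the submitters' processing notes, Bowtie2, SAMtools and bedtools were used with mm10, and the series' design text states removal of PCR duplicates by molecular identifier (no version named). The deposited files list aligned reads, and their one measurement column is a mapping score per read, used by the authors for filtering. Reads were counted here at their 5′ end, with Python 3.11.15, over genes, regions of 1 kb to each side of gene starts, 100 kb windows and single positions. Features with at least 10 reads in 2 libraries were fitted with limma 3.58.1 (voom, R 4.3.3), with 1 mean per group over all 6 libraries, the contrast Step1 minus Con and p-values adjusted by Benjamini-Hochberg within each kind of feature. Library size was the reads outside 26 piled-up 10 kb windows. The scripts were tested on simulated data.

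The members and gene lists were chosen with earlier results of these data known. Named features were, per counting and direction, up to 15 called genes, and up to 5 called starts, windows and positions, with the largest difference among those whose groups did not overlap and whose mean reached 20 reads; where none passed, the 3 with the smallest p; and up to 4 members of each list. Replicate numbers did not pair the libraries: the deviations of same-numbered libraries correlated at 0.031 over genes with all reads and 0.0216 with 1 read per position. Intervals and lower bounds (3 reads in each library of a group without reads) cover counting error only. Alternatives were another scaling, other read minimums, mapping quality of at least 30, the replicate number as a block, a smooth trend on GC content removed, Con and Step1 only, piled-up windows left out, each library left out and each of 2 sequencing runs; leaving out ends after CGCCN was added after seeing the data. Chromosome Y and mitochondrial reads were not tested. A locus among the called windows and positions is not reported here.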

Additional observations from a re-analysis of the deposited data

How the results depend on the processing

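Of 124 alternative counts of calls, 57 stayed within 1.5 times the main count. These include most alternatives for windows with 1 read per position, where 0 stayed 0 and no call was there to keep. With all reads, the 17 genes became 9 with median-of-ratios scaling, 10 without a read minimum, 9 at 20 reads, 11 with the GC trend removed, 6 with Con and Step1 only, 35 without piled-up windows and 4 in run 1. The 15 genes with 1 read per position became 4 with median-of-ratios scaling (3 higher and 1 lower), 4 with the GC trend removed (1 higher and 3 lower), 0 in run 1 and 2 in run 2. Leaving out 1 library gave 2 to 148 and 1 to 46 genes, the highest without Con 1 and the lowest without Con 2 and without Step1 1. The 1 start with all reads became 6 with median-of-ratios scaling (all higher), 3 without a minimum, 9 at 20 reads, 2 at mapping quality 30, 6 with the GC trend removed, 0 without piled-up windows, 3 in run 1, 12 in run 2, 0 without piles and ends after CGCCN, and 1 to 217 with 1 library left out. The 20 starts with 1 read per position became 0 with median-of-ratios scaling, 43 without a minimum, 9 at 20 reads, 2 with the GC trend removed (both higher), 4 with Con and Step1 only, 0 in run 1, 10 in run 2 and 0 (without Con 2) to 148 (without Con 1). The 4 windows with all reads became 2 with Con and Step1 only, 2 in run 2, 11 without ends after CGCCN, 8 without these and piles, and 2 to 176 (without Con 1) with 1 library left out; the 0 windows with 1 read per position became 0 to 39. The 233 positions became 146 at 20 reads, 65 without piles, 121 and 125 in runs 1 and 2, 44 without piles and ends after CGCCN, and 98 (without Con 2) to 253 with 1 library left out. With the replicate number as a block, 38 genes, 136 starts and 15 windows were called with all reads. With 1 read per position, the block gave 11 genes and 200 starts. Whether the numbers pair the libraries at gene starts was not tested.

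The share in genes over 300 kb differed by -0.78 (without Con 1) to -0.56 percentage points. Direction turned for the share of reads on the gene's strand in run 1 (-0.045) and for the chromosome 19 window from 5800001 without piles (0.042, and 0.035 without ends after CGCCN too). Of the called genes and gene starts reported by name, none turned, apart from the 3 repeat models. Genes and starts named without a call were not counted here. The cause of these changes was not tested. No fit without a read minimum was run for single positions.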
